A study of Homo sapiens with 4 samples.

Results

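The genes described here encode the machinery that starts and carries out DNA replication, together with the regulators that bring a cell from G1 into S phase. They were chosen by name, from a list of 34 gene symbols made with earlier results of these data known. Every probe set annotated to exactly 1 of them was taken. This gave 50 probe sets for 33 of the 34 genes, out of 22277 probe sets and 11963 annotated genes on the array. UHRF1, a chromatin protein of S phase, had no probe set under its symbol and is not measured here. All 50 probe sets passed the filter on low signals.

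RNA was measured once in each of 4 groups. They were BV-173 cells given 10 μmol/l STI571 for 16 h, untreated BV-173 cells, SUP-B15 cells given the same dose for the same time, and untreated SUP-B15 cells. BV-173 and SUP-B15 are established leukemia lines, labelled as Ph-positive acute lymphoblastic leukemia, so all 4 groups carry the Philadelphia chromosome and its BCR-ABL1 fusion kinase. STI571, or imatinib, inhibits that kinase. Each line is a model of a single patient's leukemia, no vehicle or culture time is given for the untreated cells, and with 1 array a group all values have limited precision.

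Replication begins when the origin recognition complex, CDC6 and CDT1 load a ring of MCM2 to MCM7 on DNA during G1. At the G1/S transition, cyclin E with CDK2 and the CDC7-DBF4 kinase turn this ring into an active helicase by adding CDC45 and the GINS complex, and polymerases, the PCNA clamp and its RFC loader follow. Many of these genes are transcribed in late G1 by E2F factors, which the RB protein holds back until cyclin-dependent kinases release them.

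The promoters of these genes carry a sequence known to bind E2F factors in a larger share than promoters at large, and a few are shown because the choice by name did not use this feature, which some members hold and others do not. RefSeq promoter windows of GRCh38.p14, from 250 bases before to 50 after the annotated start, were found for 30 of the 34 genes, with none for MCM4, MCM5, GINS4 and CCNE2. At least 1 of the E2F words TTTGGCGC, TTTCGCGC, TTTCCCGC and TTTGCCGC, on either strand, lay in 17 of 30 member windows (56.7%). Over all 27305 windows, 3.33% held such a word, and so did 5.71% of windows of the genes tested on these arrays. Among windows whose GC content lay within the middle 50% of the members' range, 5.10% held it. The CCAAT box, the letters CCAAT on either strand, was in 18 of 30 member windows (60.0%) and in 35.7% of all windows. A match is a description of letters and does not show that a factor binds there.

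Of the 6 members with a promoter window whose RNA was called lower after STI571 (tested below), GINS2, GINS1 and MCM2 held an E2F word. Bases 120 before to 20 after the start are printed with the E2F words in capitals, from chr16:85688935-85689074 (minus strand) for GINS2, chr20:25407553-25407692 (plus) for GINS1 and chr3:127598291-127598430 (plus) for MCM2. In MCM2 a word on each strand overlaps the other, which makes a palindrome.
GINS2: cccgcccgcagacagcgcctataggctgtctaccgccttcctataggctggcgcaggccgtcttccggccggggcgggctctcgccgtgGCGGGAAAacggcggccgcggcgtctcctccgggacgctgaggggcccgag
GINS1: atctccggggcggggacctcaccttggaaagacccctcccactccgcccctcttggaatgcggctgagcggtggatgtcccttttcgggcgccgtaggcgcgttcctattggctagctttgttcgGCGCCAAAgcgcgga
MCM2: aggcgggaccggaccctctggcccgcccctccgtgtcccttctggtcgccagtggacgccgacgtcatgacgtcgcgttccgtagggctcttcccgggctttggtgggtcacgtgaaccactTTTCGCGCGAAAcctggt

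CDC45, the member with the largest mean fall, held no E2F word of these spellings but 4 CCAAT boxes, shown in capitals in the same window (chr22:19479800-19479939, plus strand). Its stretch does hold the letters tttggcgg, which differ from TTTGGCGC only in the last letter. That spelling was not among the words searched, so the count does not show that CDC45 lacks an E2F site.
CDC45: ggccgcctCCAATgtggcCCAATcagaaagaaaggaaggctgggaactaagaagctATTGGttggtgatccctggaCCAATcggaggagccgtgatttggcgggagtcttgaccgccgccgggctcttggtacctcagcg

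E2F words were also found in members that were not called. MCM6 held 2 overlapping pairs upstream of its start (chr2:135876510-135876607, minus strand), E2F1 itself held 2 words (chr20:33686386-33686430, minus strand), and PCNA (chr20:5126662-5126693, minus strand) and CDC25A (chr3:48188442-48188473, minus strand) held 1 each, again in capitals. These 4 stretches, like that of CDC45, were picked after the words had been seen.
MCM6: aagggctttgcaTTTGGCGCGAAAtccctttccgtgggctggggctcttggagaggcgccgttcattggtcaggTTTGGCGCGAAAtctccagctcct
E2F1: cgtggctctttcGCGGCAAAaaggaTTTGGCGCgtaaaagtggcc
PCNA: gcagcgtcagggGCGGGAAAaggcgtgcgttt
CDC25A: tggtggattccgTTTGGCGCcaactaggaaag

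The first comparison asked how these genes responded to STI571 over both lines. Changes are treated minus untreated on the scale log2(signal + 24.5), where signal is the deposited intensity of a probe set, and the brightest probe set stands for a gene unless another is named. Most replication genes had lower signals in treated cells. A lower signal in both lines was found for 25 of the 33 members, against 26.5% of the 7916 genes tested, and a higher signal in both for 0. The median change was −0.75 in BV-173 cells and −0.31 in SUP-B15 cells, while the median over all genes tested was 0.05 in BV-173 cells and −0.01 in SUP-B15 cells. In RNA from a whole culture, fewer cells in S phase and less of these RNAs in each cell cannot be told apart.

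By limma, with the cell line as a block and Benjamini-Hochberg adjustment over all genes tested, 8 members were called lower at an adjusted p under 0.05, GINS2, CDC45, MCM4, RFC2, FEN1, GINS4, GINS1 and MCM2. The share of all genes called lower was 1.63%. No member was called higher (0 of 33, and also 0 at an unadjusted p under 0.05), where 1.43% of all genes were. At an unadjusted p under 0.05, 18 members were lower, against 6.09% of all genes. This fit leaves 1 residual degree of freedom, so each standard error (SE) is read from the trend over all genes at that brightness and not from the gene's own spread. Without that trend, or without the block, 0 members were called by limma, with 7 and 4 lower at an unadjusted p under 0.05.

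Another description needs no model. It asks for more than a lower signal in both lines, but more genes meet it than were called by limma. In 14 members both treated arrays lay below both untreated arrays, whichever line they came from, against 10.4% of all genes tested. These were CDC6, MCM3, MCM5, MCM6, MCM7, MCM10, CDC45, GINS1, GINS2, RFC2, PCNA, FEN1, CHAF1A and CCNE2. The list depends on the probe set. For CDC6, MCM7, RFC2 and CHAF1A a further probe set did not meet the rule, while for GINS3 only the dimmer probe set did.

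**Figure D1:**
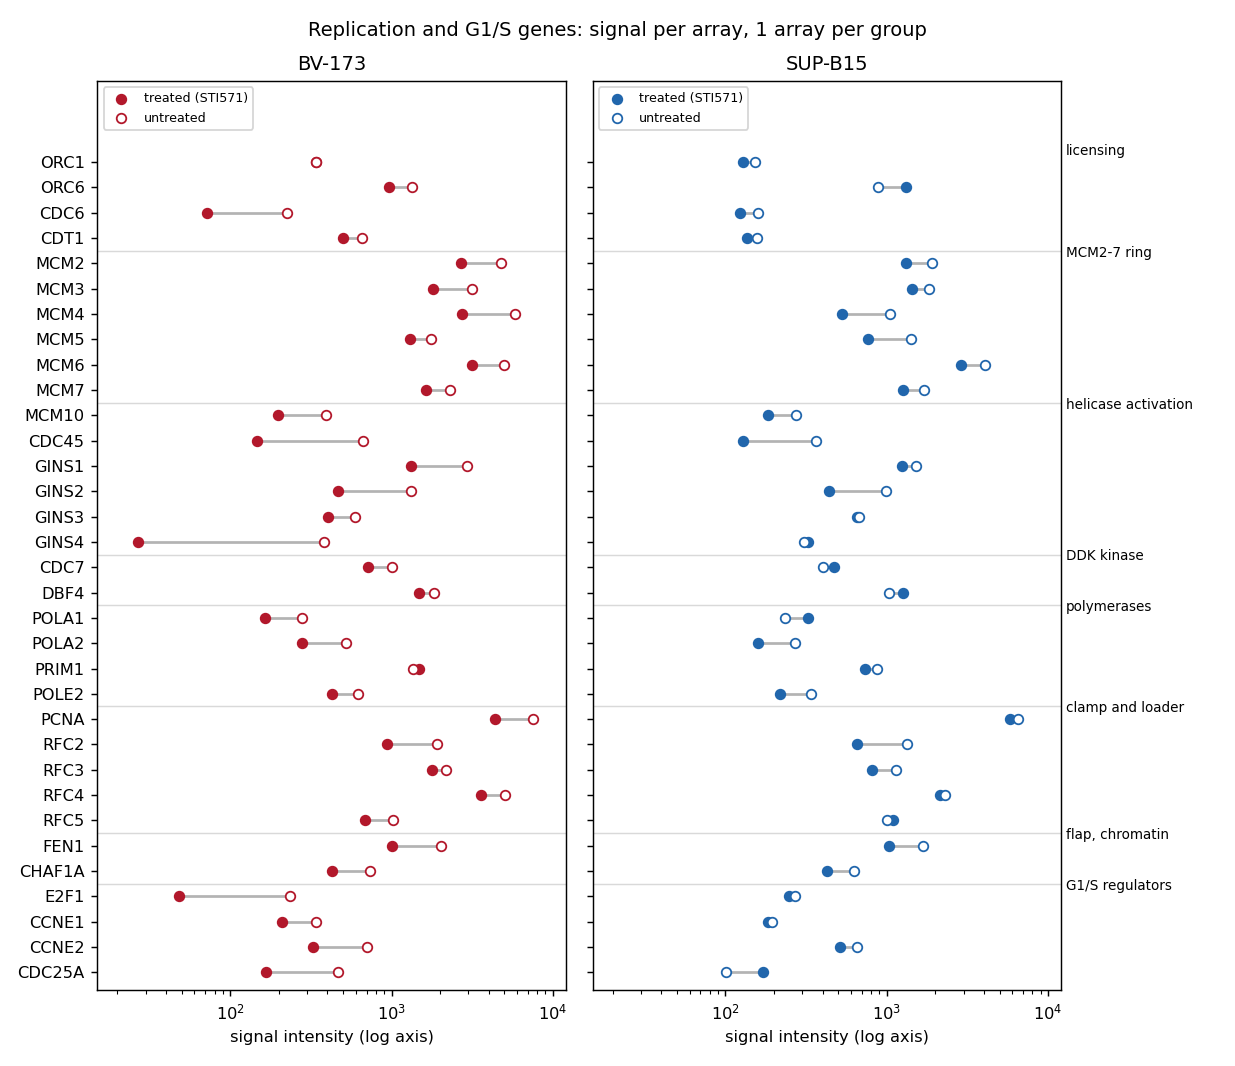
Signal intensity (log axis) of the brightest probe set of each of the 33 measured members in BV-173 (left) and SUP-B15 (right), filled for treated and open for untreated cells, 1 array per group, with members grouped by role. In BV-173 the treated point lies left of the untreated point in 32 members, the exception being PRIM1, and in SUP-B15 in 26.

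The licensing factors, which mark origins in G1, had 0 of 4 genes called. CDC6, the ATPase that helps load the MCM ring, had signals of 71.7 in treated and 225.9 in untreated BV-173, and of 122.6 in treated and 158.1 in untreated SUP-B15. Both treated values were the lower, but the adjusted p was 0.506 (mean log2 change −0.85, SE 0.48), and the other probe set of CDC6 gave log2 changes of −0.38 in BV-173 cells and −0.25 in SUP-B15 cells. The loading factor CDT1 gave 499.4 in treated and 653.7 in untreated BV-173, against 135.8 in treated and 155.8 in untreated SUP-B15 (adjusted p = 0.851), differences that were small beside the distance between the lines. ORC1, the largest subunit of the origin recognition complex, stood at 338.2 in treated and 342.2 in untreated BV-173 and at 128.9 in treated and 151.8 in untreated SUP-B15. ORC6, the smallest subunit, had log2 changes of −0.47 in BV-173 cells and 0.56 in SUP-B15 cells.

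All 6 subunits of the MCM ring had lower signals in both lines, and MCM4 and MCM2 were called. MCM4 had 2744.2 in treated and 5850.2 in untreated BV-173, and 531.0 in treated and 1053.5 in untreated SUP-B15, a mean log2 change of −1.02 (SE 0.21, adjusted p = 0.00018). The treated signal was about as far below its untreated partner in each line, although the lines themselves did not overlap. All 4 probe sets of MCM4 had lower signals in both lines, with log2 changes of −1.09 to −0.65 in BV-173 and −0.96 to −0.26 in SUP-B15. When the mean of its probe sets stood for the gene, MCM4 was no longer called (adjusted p = 0.0562).

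MCM2 stood at 2697.4 in treated and 4805.0 in untreated BV-173 and at 1324.0 in treated and 1897.4 in untreated SUP-B15 (mean log2 change −0.67, SE 0.21, adjusted p = 0.0402). Its call ended when arrays were quantile normalized (0.0659) or scaled to a common median (0.183), or when genes were given by the mean of their probe sets (0.0972). The remaining 4 subunits did not pass the test, although in each both treated signals lay below both untreated signals. MCM3 gave 1808.8 in treated and 3154.5 in untreated BV-173, against 1431.9 in treated and 1838.5 in untreated SUP-B15 (adjusted p = 0.117). MCM5 gave 1302.7 in treated and 1756.7 in untreated BV-173, against 763.8 in treated and 1419.9 in untreated SUP-B15 (adjusted p = 0.0759), and was the only ring subunit with a larger log2 difference in SUP-B15 than in BV-173.

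MCM6 had 3143.1 in treated and 4964.0 in untreated BV-173 and 2890.1 in treated and 4076.2 in untreated SUP-B15 (adjusted p = 0.104). MCM7 had 1628.3 in treated and 2309.1 in untreated BV-173 and 1268.9 in treated and 1713.6 in untreated SUP-B15 (adjusted p = 0.304). For MCM6 the 95% interval of the mean log2 change ran from −0.97 to −0.17 and for MCM7 from −0.87 to −0.05. A fall of 2-fold is −1 on this scale. The intervals hold no spread between replicate cultures, so they do not exclude such a fall. Across the ring the mean log2 change lay between −1.02 for MCM4 and −0.46 for MCM7.

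The factors that turn the loaded ring into a moving helicase held 4 of the 8 calls. CDC45, which joins the ring at the start of S phase, had 146.2 in treated and 662.5 in untreated BV-173, and 128.3 in treated and 365.0 in untreated SUP-B15. These are falls of 4.02-fold in BV-173 and 2.55-fold in SUP-B15 on the log2(signal + 24.5) scale (mean log2 change −1.68, SE 0.33, adjusted p = 9.27e-05). GINS2, a subunit of the 4-membered GINS complex, had 465.0 in treated and 1329.3 in untreated BV-173, and 439.0 in treated and 989.3 in untreated SUP-B15 (mean log2 change −1.30, SE 0.24, adjusted p = 1.58e-05). The treated arrays of both lines were nearly level for CDC45 and for GINS2. On the log2(signal + 24.5) scale these were the only 2 members at least 2-fold lower in each line. RFC2 fell just short on that scale, at 1.997-fold in SUP-B15, though not on the signals themselves.

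The other GINS subunits differed from GINS2 in SUP-B15. GINS1 had 1328.3 in treated and 2938.9 in untreated BV-173 but 1238.0 in treated and 1520.5 in untreated SUP-B15 (adjusted p = 0.0293), and the call ended with quantile normalization (0.0502), a common median (0.183) and the mean of probe sets (0.13). GINS4 had 26.7 in treated and 382.0 in untreated BV-173, against 323.5 in treated and 305.5 in untreated SUP-B15. Its call (mean log2 change −1.46, SE 0.39, adjusted p = 0.01) therefore came from BV-173 alone, where the treated signal was close to the added 24.5 and at the 26.3rd percentile of its array. The size of that change depends on the added value, the mean log2 change being −1.85 with 1 added and −0.94 with 98 added, and the call ended with no filter (0.122) and with the mean of probe sets (0.197). GINS3 had log2 changes of −0.54 in BV-173 cells and −0.04 in SUP-B15 cells, the small SUP-B15 value turning to 0.07 under a common median. MCM10, which helps to release the activated helicase, had 197.7 in treated and 393.5 in untreated BV-173 and 183.5 in treated and 275.4 in untreated SUP-B15 (adjusted p = 0.34).

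CDC7 and DBF4, the kinase that phosphorylates the ring and its activating subunit, were not lower in both lines. DBF4 had 1479.9 in treated and 1831.7 in untreated BV-173, and 1268.8 in treated and 1030.7 in untreated SUP-B15. The differences had opposite signs in the lines and their mean log2 change was 0.00 (95% interval −0.43 to 0.42). CDC7 likewise gave −0.48 in BV-173 cells and 0.20 in SUP-B15 cells.

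Among polymerase genes, 0 of 4 were called. POLA2, the regulatory subunit of polymerase alpha, had log2 changes of −0.86 in BV-173 cells and −0.68 in SUP-B15 cells (adjusted p = 0.238), and POLE2, a subunit of polymerase epsilon, −0.51 in BV-173 cells and −0.59 in SUP-B15 cells (adjusted p = 0.442). The catalytic subunit POLA1 gave −0.69 in BV-173 cells and 0.42 in SUP-B15 cells. PRIM1, the primase that lays down RNA primers, gave 0.12 in BV-173 cells and −0.24 in SUP-B15 cells, and was the only member with a higher signal in treated than in untreated BV-173. Under a common median that value became −0.05, so its direction rests on the scaling.

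PCNA, the sliding clamp that holds polymerases on DNA, had 4370.7 in treated and 7487.0 in untreated BV-173 and 5833.4 in treated and 6534.8 in untreated SUP-B15 (mean log2 change −0.47, SE 0.21, adjusted p = 0.272). Both treated signals lay below both untreated signals, with most of the difference in BV-173. Of the clamp loader genes, RFC2 was called, at 936.7 in treated and 1911.0 in untreated BV-173 and 654.2 in treated and 1330.6 in untreated SUP-B15 (mean log2 change −1.0, SE 0.22, adjusted p = 0.000664). The other probe set of RFC2 gave log2 changes of −0.08 in BV-173 cells and −0.74 in SUP-B15 cells, and RFC2 lost its call as the mean of both (adjusted p = 0.106) or when genes were restricted to gene-specific probe sets (0.479). RFC3, RFC4 and RFC5 were not called, with mean log2 changes of −0.38, −0.30 and −0.22.

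FEN1, the nuclease that trims Okazaki fragment flaps, had 1004.4 in treated and 2015.7 in untreated BV-173 and 1032.6 in treated and 1665.9 in untreated SUP-B15 (mean log2 change −0.83, SE 0.22, adjusted p = 0.00714). Its other probe set was called too, with −1.05 in BV-173 cells and −0.69 in SUP-B15 cells, while a common median ended the gene's call (0.0807). CHAF1A, the large subunit of the chaperone that places histones behind the fork, had log2 changes of −0.75 in BV-173 cells and −0.55 in SUP-B15 cells (adjusted p = 0.196), and all 3 of its probe sets were lower in both lines.

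The 4 regulators of S phase entry had a median log2 change of −1.21 in BV-173 cells and −0.09 in SUP-B15 cells, and 0 were called. E2F1, the transcription factor, had 47.9 in treated and 235.5 in untreated BV-173, against 247.8 in treated and 268.7 in untreated SUP-B15 (adjusted p = 0.248). The treated BV-173 array stood alone below the other 3, and the second E2F1 probe set showed the same, with 66.6 in treated and 198.4 in untreated BV-173 and 173.8 in treated and 158.2 in untreated SUP-B15. CCNE2, a cyclin E gene, had 325.8 in treated and 708.2 in untreated BV-173 and 515.7 in treated and 656.6 in untreated SUP-B15, so both treated values were the lower (adjusted p = 0.135). CCNE1, the other cyclin E gene, had 209.0 in treated and 338.5 in untreated BV-173 and 183.9 in treated and 195.4 in untreated SUP-B15 (adjusted p = 0.815), and the small SUP-B15 difference turned to 0.02 under a common median. CDC25A, a phosphatase that activates CDK2, had 167.2 in treated and 468.0 in untreated BV-173 and 170.9 in treated and 100.6 in untreated SUP-B15 (adjusted p = 0.833). The second CDC25A probe set had the opposite sign in each line, with log2 changes of 0.38 in BV-173 cells and −0.55 in SUP-B15 cells.

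Most members had a smaller difference in SUP-B15 than in BV-173. A signal at least 2-fold lower was found for 2 members in SUP-B15, where 5.7% of all genes tested had one, and for 10 members in BV-173, where 4.65% had one. The 10 were GINS4, CDC45, E2F1, GINS2, CDC6, CDC25A, GINS1, MCM4, CCNE2 and RFC2. The log2 change in SUP-B15 was above that in BV-173 for 28 of 33 members, as for 45.7% of all genes. Under a common median, which moves the median change of all genes by 0.10 in SUP-B15 and by −0.16 in BV-173, these became 31 members and 62.7%. On the deposited scale the SUP-B15 change was also the higher for 34 of 39 mitosis genes, described below. The same held for 18 of 23 E2F, RB and CDK genes, 7 of 9 nucleotide supply genes and 20 of 34 further replication factors. With 1 array per group the difference between the lines' responses was not tested. The treated BV-173 array also stood apart in the 18S ribosomal RNA control probe sets, with a mean signal of 2817 in treated and 1596 in untreated BV-173, against 1513 in treated and 1577 in untreated SUP-B15, and the part of this in the result was not tested.

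**Figure D2:**
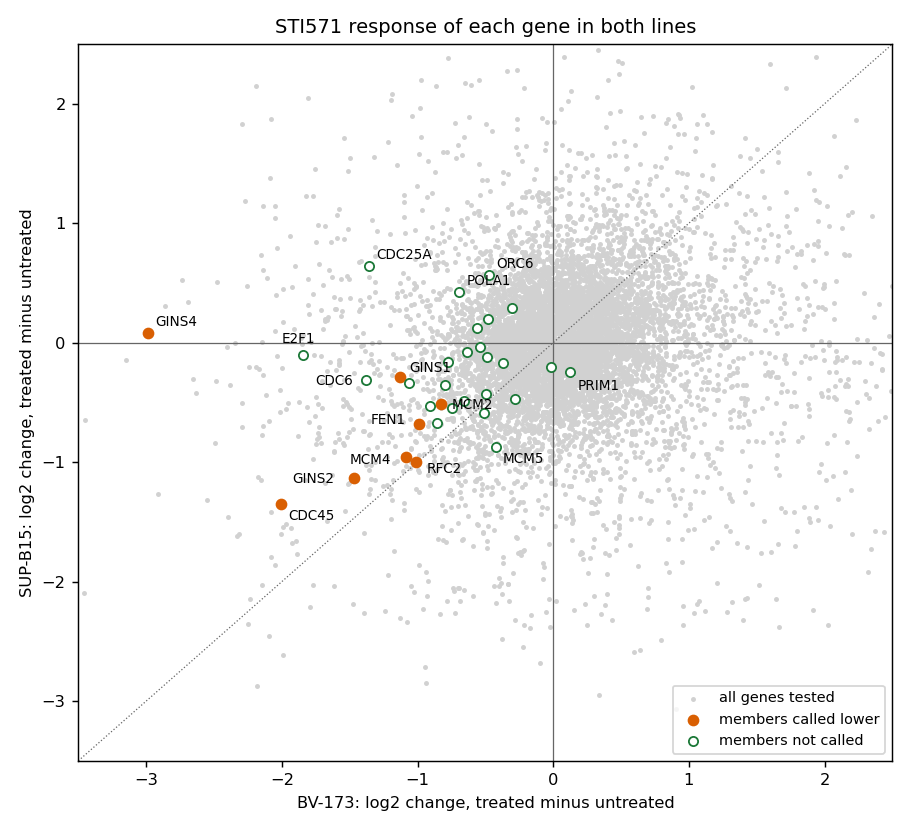
Log2 change with STI571 in BV-173 (horizontal) and SUP-B15 (vertical), treated minus untreated, for members called lower (filled), members not called (open) and all genes tested (grey, 13 of them beyond the axes); the dotted line marks equal changes. In 28 of 33 members the point lies above the dotted line, and CDC45 and GINS2 lie lowest in SUP-B15, while GINS4 lies furthest to the left in BV-173.

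Probe sets of the same gene were then compared, since 13 members had more than 1. Fitted as features of their own among 11818 probe sets, 11 of the 50 member probe sets were called lower, against 1.56% of all probe sets called lower. They belonged to 9 genes, the 8 named above and RFC5. The RFC5 call came from 1 of its 3 probe sets, which had 149.7 in treated and 580.1 in untreated BV-173 and 694.5 in treated and 662.6 in untreated SUP-B15 (adjusted p = 0.0479). The brightest RFC5 probe set gave log2 changes of −0.56 in BV-173 cells and 0.12 in SUP-B15 cells. The mean of both lines had the same sign in every probe set of a gene for all 13 of these genes, and 39 of the 50 probe sets were lower in both lines.

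**Figure D3:**
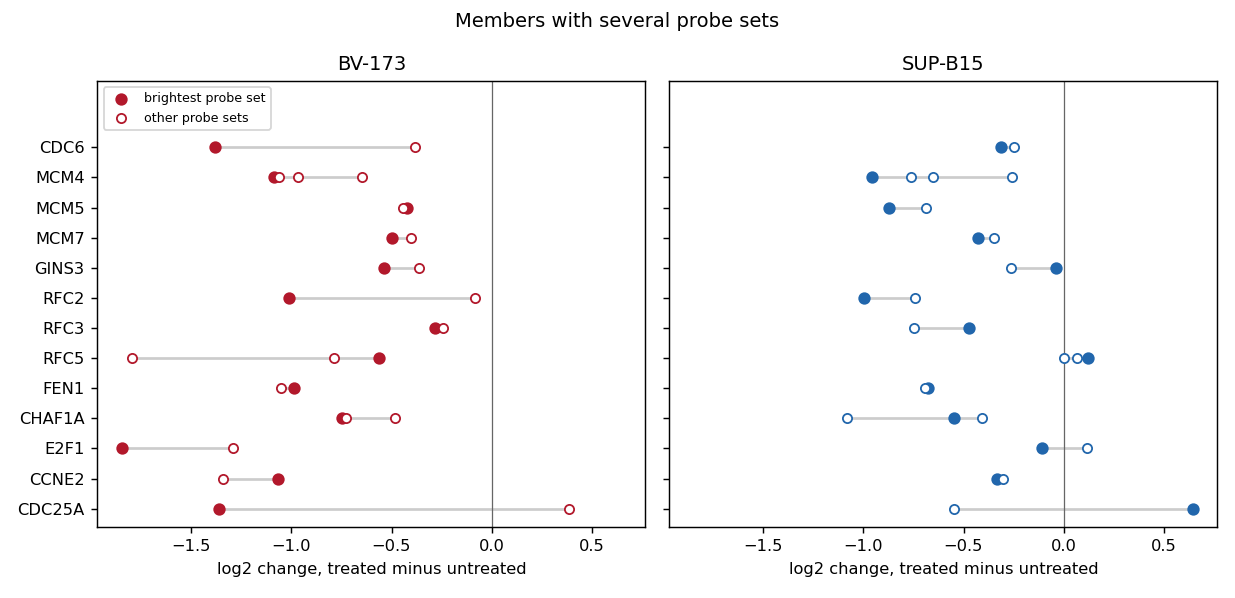
Log2 change with STI571, treated minus untreated, in BV-173 (left) and SUP-B15 (right) for the 13 members with more than 1 probe set, the brightest filled and the others open. CDC6, MCM4, MCM5, MCM7, GINS3, RFC2, RFC3, FEN1, CHAF1A and CCNE2 have every probe set left of 0 in both lines, while CDC25A has its 2 probe sets on opposite sides of 0 in each line.

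Genes of the same process that were not in the list were described alongside, with no test of the difference between lists. Of 34 further replication factors tested (ORC2 to ORC5, RPA, polymerase delta and others), 0 were called by limma in either direction, with 3 lower and 1 higher at an unadjusted p under 0.05. Their median change was −0.34 in BV-173 cells and −0.14 in SUP-B15 cells, and 17 of 34 were lower in both lines. LIG1, the ligase that joins Okazaki fragments, had log2 changes of −0.86 in BV-173 cells and −0.65 in SUP-B15 cells (adjusted p = 0.331). MCM9, an MCM relative outside the ring, had 0.83 and 0.60 (adjusted p = 0.557), and the checkpoint adaptor CLSPN −0.31 and −0.90 (adjusted p = 0.85). The mean log2 change of MCM9 was 0.71 with its brightest probe set but 0.10 with the mean of its probe sets.

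Enzymes that supply nucleotides for replication had 7 of 9 genes lower in both lines and 0 called by limma (4 lower at an unadjusted p under 0.05). RRM2, a subunit of ribonucleotide reductase, had 1462.0 in treated and 2649.9 in untreated BV-173 and 2412.7 in treated and 2900.1 in untreated SUP-B15 (adjusted p = 0.135). DCTD, which deaminates dCMP, gave −0.79 in BV-173 cells and −0.53 in SUP-B15 cells (adjusted p = 0.0985), and thymidine kinase TK1 −0.27 and −0.90 (adjusted p = 0.427).

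The E2F, RB and CDK genes outside the list had 2 of 23 called lower and 1 higher. DTL, which directs CDT1 to degradation, had 1974.9 in treated and 3646.1 in untreated BV-173 and 1222.6 in treated and 2047.5 in untreated SUP-B15 (adjusted p = 0.00667), and lost its call with a common median (0.0688). TFDP1, a binding partner of E2F factors named after its value was seen, had log2 changes of −0.72 in BV-173 cells and −0.76 in SUP-B15 cells (adjusted p = 0.0184). TFDP2, the related partner, was the gene called higher, with 230.1 in treated and 126.9 in untreated BV-173 and 667.9 in treated and 223.4 in untreated SUP-B15 (adjusted p = 0.0339); the call ended in 5 alternatives that kept the intensity trend and the block, with adjusted p up to 0.259. The CDK inhibitor gene CDKN1C, dim except in untreated SUP-B15, was not called (adjusted p = 0.83).

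Genes of mitosis, the later phase of the same cycle, had other values. Of 39 tested, 1 was lower in both lines and 17 were higher in both, where 2288 of the 7916 genes tested were higher in both, and under a common median 9 of the 39 were. Of the same 39, 0 were called by limma in either direction, and 1 was higher at an unadjusted p under 0.05. Their median change was 0.01 in BV-173 cells and 0.29 in SUP-B15 cells, and in 0 of 39 did both treated arrays lie below both untreated arrays, against 14 of 33 replication members. Under a common median the mitosis medians were −0.15 and 0.39, so their direction in BV-173 depends on the scaling. The spindle checkpoint kinase BUB1 had log2 changes of 0.16 in BV-173 cells and 0.94 in SUP-B15 cells (adjusted p = 0.226), KIF23, a motor of cytokinesis, 0.43 and 0.66 (adjusted p = 0.582), and the mitotic cyclin CCNB2 0.34 and 0.36 (adjusted p = 0.532). The difference between the lists was not tested.

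**Figure D4:**
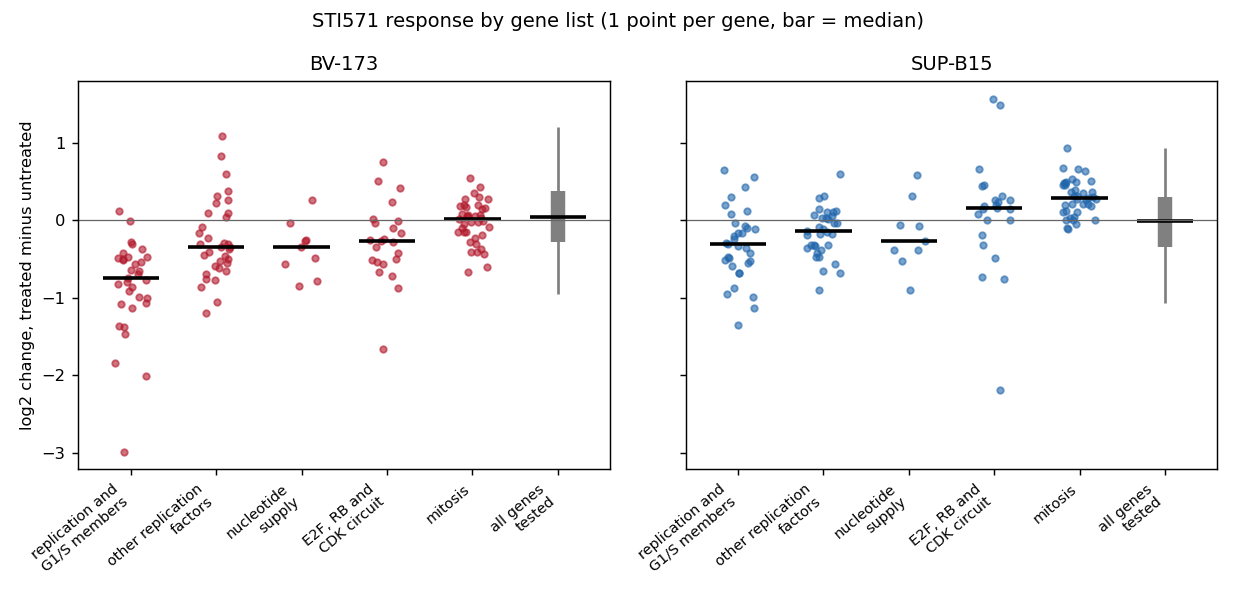
Log2 change with STI571, treated minus untreated, for each gene of 5 lists (points, with the median as a bar) and for all genes tested (thick bar from the 25th to the 75th percentile, thin line from the 5th to the 95th) in BV-173 (left) and SUP-B15 (right). The replication and G1/S members have medians of −0.75 in BV-173 cells and −0.31 in SUP-B15 cells, and the mitosis genes of 0.01 and 0.29.

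The second comparison set SUP-B15 against BV-173, as the mean of the treated and untreated arrays of each line in the same limma fit. Of the 33 members, 13 were called lower in SUP-B15, where 14.5% of all genes were, and 2 were called higher, where again 14.5% were. The largest difference was in MCM4, at 531.0 in treated and 1053.5 in untreated SUP-B15 against 2744.2 in treated and 5850.2 in untreated BV-173 (log2 difference −2.38, SE 0.21, adjusted p = 1.5e-27). CDT1 was lower in SUP-B15 by a log2 difference of −1.81 (SE 0.32, adjusted p = 2.37e-07) and MCM2 by −1.17 (SE 0.21, adjusted p = 1.99e-07). For each of these 3 genes, both SUP-B15 arrays lay below both BV-173 arrays.

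Polymerase, loader and origin genes were among the others called lower. They were RFC3 (−1.0), RFC4 (−0.93), CDC7 (−0.92), PRIM1 (−0.81), ORC1 (−1.15), POLE2 (−0.86), MCM3 (−0.55), CDC25A (−0.97), POLA2 (−0.81) and GINS1 (−0.52), each a log2 difference of SUP-B15 minus BV-173. The genes called higher in SUP-B15 were GINS4 (1.23) and E2F1 (1.04), and both calls rest on the low treated BV-173 array. Between untreated arrays the log2 difference, SUP-B15 minus BV-173, was −0.30 for GINS4 and 0.17 for E2F1. CDC25A and GINS1, called lower, differed mainly between untreated arrays, with log2 differences of 0.03 for CDC25A and −0.10 for GINS1 between treated arrays and of −1.98 for CDC25A and −0.94 for GINS1 between untreated arrays. The second CDC25A probe set gave 0.77 between untreated arrays. PCNA, at 0.11 (SE 0.21), and CDC6, at 0.08 (SE 0.48), were among the 18 members not called.

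**Figure D5:**
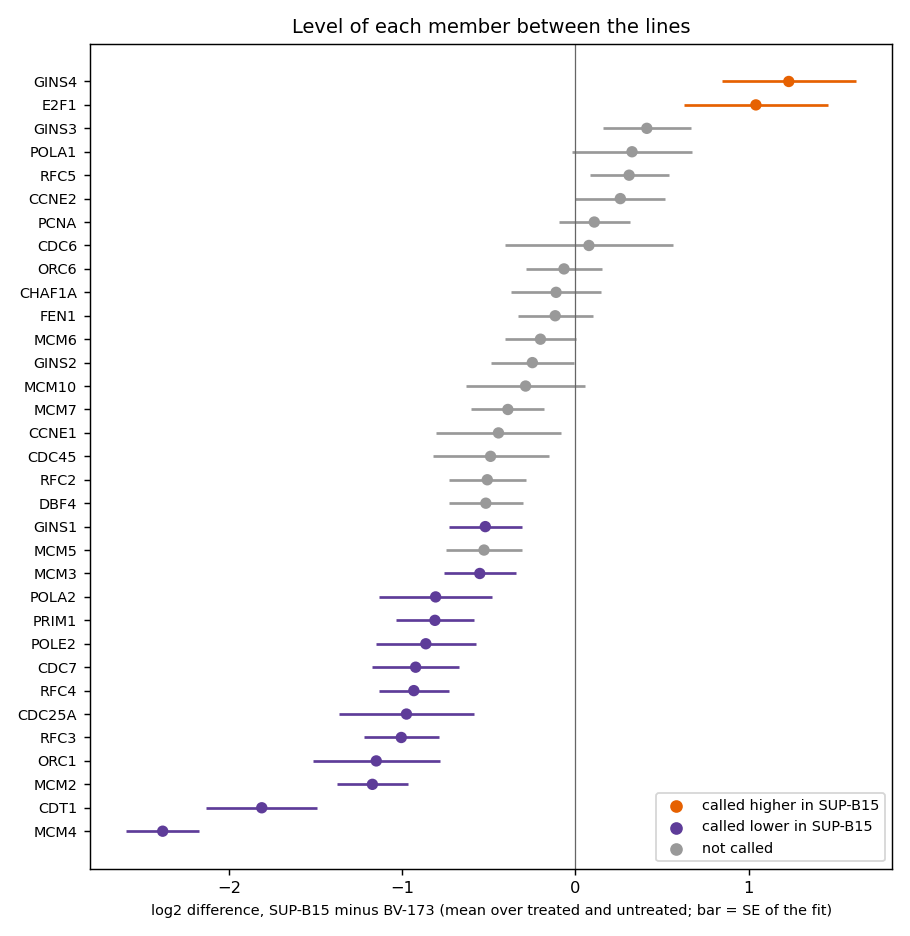
Log2 difference of each member, SUP-B15 minus BV-173, as the mean over treated and untreated arrays with the standard error of the fit as a bar, coloured by call. MCM4 lies furthest to the left at −2.38 and GINS4 furthest to the right at 1.23, with 13 members called lower and 2 called higher in SUP-B15.

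The lineage of the cells was described by markers of B cell precursors and of other cell types. All 6 B cell precursor genes with an annotated probe set (CD79A, CD79B, CD22, PAX5, VPREB1 and IGLL1) lay above the median signal in every array. Their summed signal was 26512 in treated and 17552 in untreated BV-173 and 45347 in treated and 34287 in untreated SUP-B15. IGLL1 alone gave 18311 in treated and 11962 in untreated BV-173 and 30849 in treated and 23839 in untreated SUP-B15. The summed signals of 4 T cell, 4 myeloid, 3 NK cell, 2 erythroid and 4 stromal markers lay between 58.3 and 498.8. Above the median in at least 1 array were 1 T cell, 2 myeloid, 2 NK cell, 1 erythroid and 2 stromal markers. Of these, NKG7 lay above it in every array, at percentiles from 56.9 to 71.1.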

How the data were processed

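RNA was prepared with a Qiagen kit and hybridised by standard Affymetrix methods, per the labels' protocols, and GCOS 1.3 is named per the submitters' processing notes. The authors deposited linear signal intensity for each probe set, neither logged nor centred. How probes were summarised, and to what target arrays were scaled, is not given in the sources used here. Every column had a 2%-trimmed mean of 500.2.

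Gene names came from the platform annotation, and 19064 of 22277 probe sets had 1 symbol. Probe sets at or above the 50th percentile of any array were kept, and the brightest stood for a gene. Log2(signal + 24.5) was fitted with limma 3.58.1 in R 4.3.3, with cell line and treatment as terms, an intensity trend and two-sided Benjamini-Hochberg adjustment over 7916 genes; prior degrees of freedom were infinite. A separate fit took 11818 probe sets. Responses of single lines have no test. With 1 array per group, the residual is the disagreement between the responses of the lines, pooled over genes of like brightness. The p-values therefore hold no spread between replicate cultures. The fit was tested on simulated data, but no outcome of that is given here and no result rests on it.

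The members and lists were chosen with earlier results of these data known. By rule, all 4 signals are given for members called for STI571, MCM2 to MCM7 and selected others, and of each further list the 3 genes with the largest mean change are named. Groupings by role follow textbook function. Alternatives covered scaling, the added value, the filter, the choice of probe sets, the variance model and the block.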

Additional observations from a re-analysis of the deposited data

Results flagged for a closer look

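In 8 members the log2 changes after STI571 had opposite signs in the lines, each with 1 array per group, and the differences were not tested. They are given as the log2 change in SUP-B15 minus that in BV-173. GINS4 was furthest apart at 3.07 (0.08 in SUP-B15 and −2.99 in BV-173), followed by CDC25A at 2.0 (0.64 and −1.36). POLA1 gave 1.11 and ORC6 1.04, both higher in treated SUP-B15 and lower in treated BV-173 than in untreated cells. RFC5 gave 0.683, CDC7 0.678 and DBF4 0.597 in the same direction. PRIM1 was the reverse at −0.367, with a lower signal in treated SUP-B15. With a common median PRIM1 had a negative change in both lines.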

How the results depend on the processing

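Of 33 members, 8 were called lower for STI571. The count was 5 with a common median, 3 with the mean of probe sets and 3 with gene-specific probe sets (22 members tested), and by limma 0 without the intensity trend (669 genes in all, 7 of them members that were lower, at an unadjusted p under 0.05) and 0 with no block for the line (73 and 4). Over all genes the 129 lower and 113 higher calls became 96 lower and 61 higher with a common median. They became 61 lower and 55 higher with the mean of probe sets and 74 lower and 63 higher with gene-specific probe sets. Without the trend or the block they became 0 lower and 0 higher. GINS2 and CDC45 were called under all 9 alternatives that measured them and kept the trend and the block, with adjusted p up to 0.00533 and 0.00614; for the other 6 it reached 0.0562 to 0.479. With gene-specific probe sets, 16 of 22 members were lower in both lines and 7 of 22 had both treated arrays below both untreated arrays; fewer members were measured there. The median change of the members kept its sign under every scaling, added value, filter and choice of probe sets tried.

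Between the lines, the 2 members called higher in SUP-B15 became 1 with quantile normalization, a common median or the larger added value of 98. The count was 0 with no filter, the mean of probe sets, no trend or no treatment term. It was also 0 with the 75th percentile filter, which left out both genes, GINS4 and E2F1. The 13 called lower became 2 without the trend and 8 without the treatment term. At 1.5-fold, 8 members were lower in SUP-B15 and 20 in BV-173, and at 3-fold 0 in SUP-B15 and 3 in BV-173. The causes of these differences were not tested. Dim treated BV-173 signals of GINS4 and E2F1 limit the size of their changes.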

Other observations

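Members with an E2F word in their promoter window and members without were set side by side as a description. Only the spellings searched count as a word, so a member without one can hold a near spelling, as CDC45 does. The 16 measured members with a word had a median log2 change of −0.78 in BV-173 cells and −0.33 in SUP-B15 cells, and 3 were called lower. The 13 without had medians of −0.56 and −0.20, with 3 called lower. Both lines had negative changes in 14 of the 16 with a word and in 8 of the 13 without. The difference was not tested, and the words were counted after the changes were known.

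CDC25A and RFC5 are the members whose probe sets were furthest from each other within a line. For CDC25A the brightest and the second probe set gave −1.36 and 0.38 in BV-173, and 0.64 and −0.55 in SUP-B15. For RFC5 the 3 probe sets gave −0.56, −1.80 and −0.79 in BV-173 and lay between 0.00 and 0.12 in SUP-B15.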
